A study of Mus musculus with 4 samples.

Results

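Dual-specificity and tyrosine phosphatases were followed in sorted group 3 innate lymphoid cells (ILC3), as all genes with a single platform symbol of the Dusp, Ptpn or Ptpr series. The pattern took 61 of 19938 named genes, namely 24 Dusp, 17 Ptpn and 20 Ptpr genes, and a gene with several probe sets was given by the one with the highest mean. The cells were sorted as CD127+ CD90.2+ CCR6+ ST2- from mesenteric lymph nodes of C57BL/6 mice described as naive. They form 1 group of 4 arrays, with no treated, mutant or other cell group to set them against. Age, sex and pooling of the animals are not stated, nor whether the 4 samples came from separate animals or sorts, so the spread between arrays may be partly technical. The labels give no marker that removes B or T cells.

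Phosphatases of this superfamily remove phosphate through a catalytic cysteine. Dual-specificity phosphatases act on phosphotyrosine together with phosphoserine or phosphothreonine, and those known as MAP kinase phosphatases switch off ERK, JNK and p38. Classical tyrosine phosphatases are cytosolic (Ptpn) or span the membrane (Ptpr), and in lymphocytes they set the activity of Src family kinases, of JAK kinases below cytokine receptors, and of the kinases next to antigen and inhibitory receptors.

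Values are log2 levels from robust multi-array average (RMA) processing, in log2 units throughout, and means are given ± SD over the 4 arrays. A gene was called above background when its mean lay high among 1237 receptor genes for odours, pheromones, trace amines and bitter taste (empirical one-sided detection p, Benjamini-Hochberg adjusted over all named genes, threshold 0.05). The lowest mean so called was 6.37. A higher level in 1 gene than in another is not read as more transcript, because hybridisation efficiency differs from probe set to probe set. Means are ordered between genes for the detection call and to choose which genes are shown. As a stricter reading, genes were also compared with 17 organ-specific genes (organ genes), of which 7 were called and which reached 7.42 on 1 array. A gene is termed clearly detected where it exceeded all 17 on each array.

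Of the 61 phosphatase genes, 34 were above background (55.7%), beside 46.2% of all named genes. The median level was 6.67 over the 61 genes and 6.16 over all named genes. The calls came to 12 of 17 Ptpn genes, 15 of 24 Dusp genes and 7 of 20 Ptpr genes. These counts, and those of the classes and lists below, stand beside the 46.2% of all named genes and were not tested against it. Limma's test called 44 of the 61 (54.1% of all named genes), and 43 had all 4 arrays above the 95th percentile of background (54.4% of all named genes). Clearly detected were 15 of the 61, against 24.3% of all named genes. These were Dusp1, Dusp7, Dusp11, Dusp12, Ptpn1, Ptpn2, Ptpn3, Ptpn6, Ptpn7, Ptpn11, Ptpn12, Ptpn22, Ptpra, Ptprc and Ptpre. Adjusted detection p-values of the 34 called genes ran from 0.0108, the smallest the test can give here, to 0.0490. The 27 other members lay between 3.96 and 6.34.

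**Figure D1:**
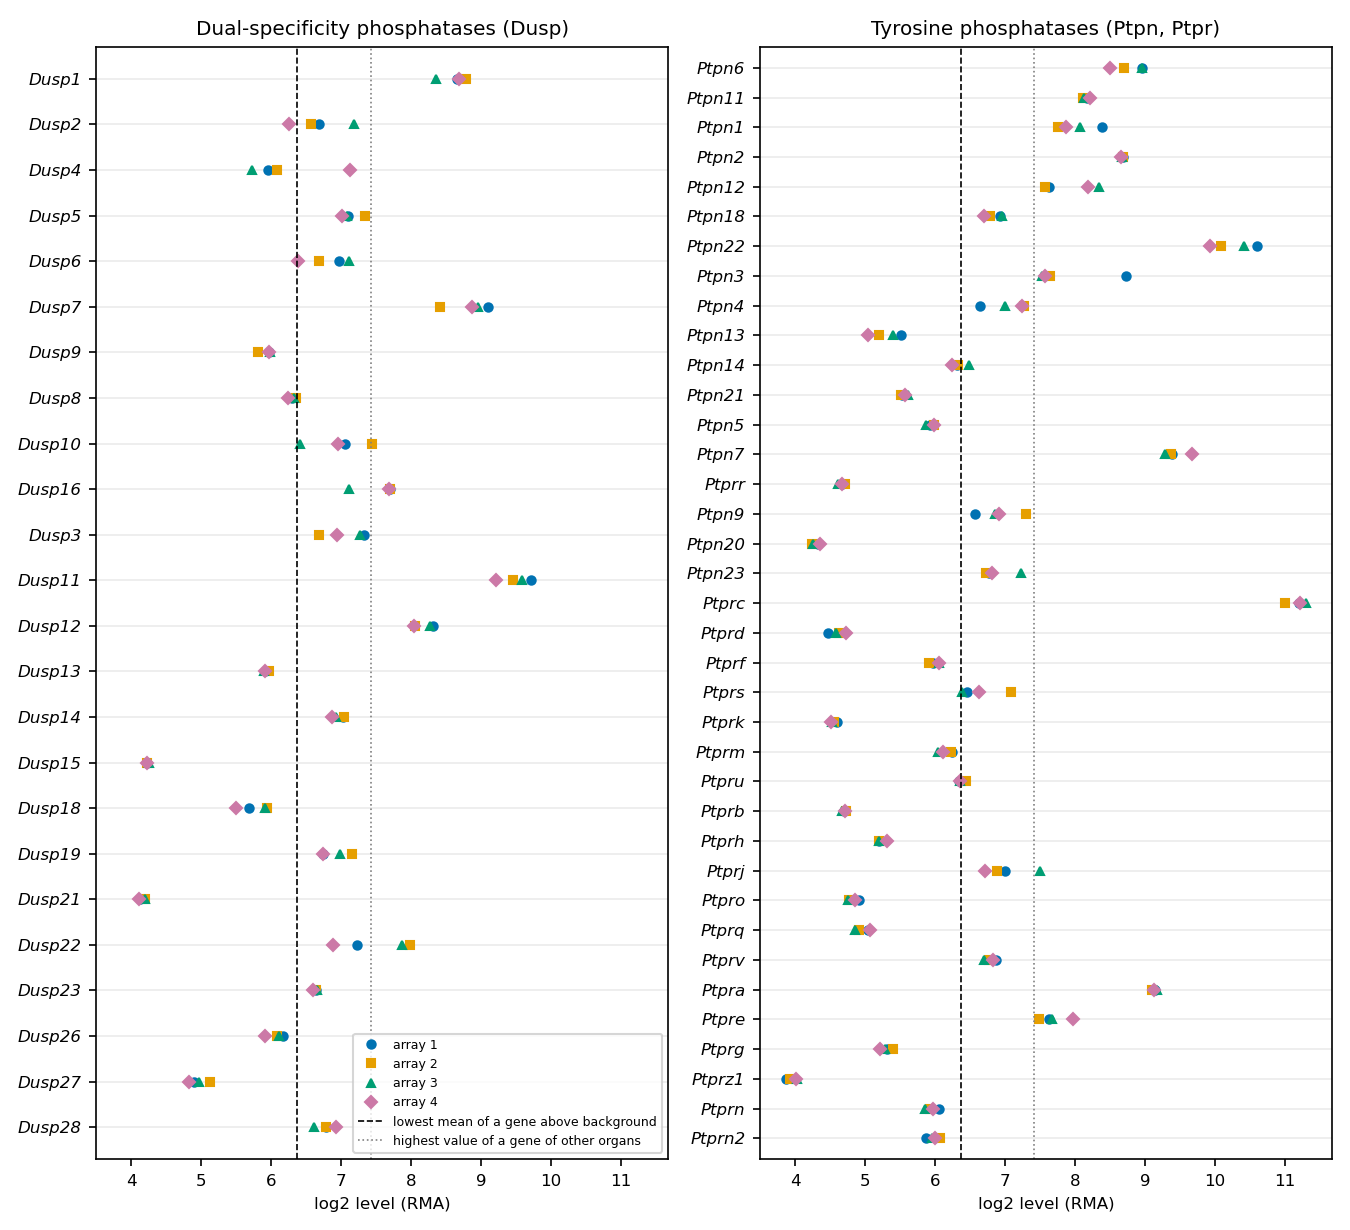
Log2 level of each of the 61 phosphatase genes on arrays 1 to 4 (1 symbol per array), Dusp genes on the left and Ptpn and Ptpr genes on the right, with the lowest mean of a called gene (6.37, dashed) and the highest value of an organ gene (7.42, dotted). Ptprc lies between 11.00 and 11.30 and Ptprz1 between 3.87 and 4.02.

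The promoters of the clearly detected members differed in CpG content. RefSeq promoter sequence (assembly GRCm38.p6) was found for 49 of the 61 genes, with 66 starts in all, and the 250 bases before each start were read. Of the 15 clearly detected genes 13 had one. When these were split at the widest gap between their values, 8 averaged 3 to 13 CpG dinucleotides and the other 5 had 25 to 41. The split follows from that choice. Other called members lay inside the gap, such as Dusp6 at 16 and Dusp5 at 21. Members not called ran from 2 in Dusp27 to 38 in Ptprk. Ptprc, Ptpn22, Ptpn6 and Ptpn7 averaged 3, 3.5, 7 and 7.5 per start, and Dusp12, Ptpre, Ptpn3 and Dusp11 averaged 3, 8.67, 12 and 13. Dusp1, Dusp7, Ptpn1, Ptpn11 and Ptpra had 28, 34, 41, 31 and 25. To show this range, 4 promoters are printed 5′ to 3′ on the gene's strand with each CG in capitals. Chosen were the 2 genes with the highest means (the first listed of 2 starts each) and, among the clearly detected genes, the 2 with the most CpG. They are Ptprc (chr1:138175306-138175555, minus strand, 4 CpG), Ptpn22 (chr3:103859545-103859794, plus strand, 5 CpG), Dusp7 (chr9:106368382-106368631, plus strand, 34 CpG) and Ptpn1 (chr2:167932077-167932326, plus strand, 41 CpG).
Ptprc: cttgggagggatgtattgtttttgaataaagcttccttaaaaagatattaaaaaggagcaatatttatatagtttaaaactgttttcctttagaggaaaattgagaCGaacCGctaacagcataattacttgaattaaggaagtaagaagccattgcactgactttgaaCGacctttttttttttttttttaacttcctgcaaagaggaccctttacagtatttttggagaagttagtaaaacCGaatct
Ptpn22: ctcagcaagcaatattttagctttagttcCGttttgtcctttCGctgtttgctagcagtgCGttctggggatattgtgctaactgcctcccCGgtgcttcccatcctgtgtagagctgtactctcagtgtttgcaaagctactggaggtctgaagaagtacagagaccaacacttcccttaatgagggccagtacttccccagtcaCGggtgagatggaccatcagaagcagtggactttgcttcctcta
Dusp7: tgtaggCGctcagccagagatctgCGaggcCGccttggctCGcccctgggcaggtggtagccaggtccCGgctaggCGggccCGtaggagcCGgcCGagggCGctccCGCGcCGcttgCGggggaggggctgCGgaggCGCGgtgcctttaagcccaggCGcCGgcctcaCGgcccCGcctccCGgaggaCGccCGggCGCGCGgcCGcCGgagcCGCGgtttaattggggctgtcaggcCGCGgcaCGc
Ptpn1: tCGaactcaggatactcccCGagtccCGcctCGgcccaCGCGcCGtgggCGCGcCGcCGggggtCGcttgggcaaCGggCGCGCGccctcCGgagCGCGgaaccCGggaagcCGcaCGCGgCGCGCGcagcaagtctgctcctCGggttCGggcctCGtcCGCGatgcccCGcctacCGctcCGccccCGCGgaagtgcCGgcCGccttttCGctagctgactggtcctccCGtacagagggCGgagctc
Over the members with a promoter, the median was 18.75 CpG for the 30 above background and 15 for the 19 not above it. Over all named genes it was 16 for the 7427 above background and 5 for the 8187 not above it. These are descriptions without a test.

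**Figure D2:**
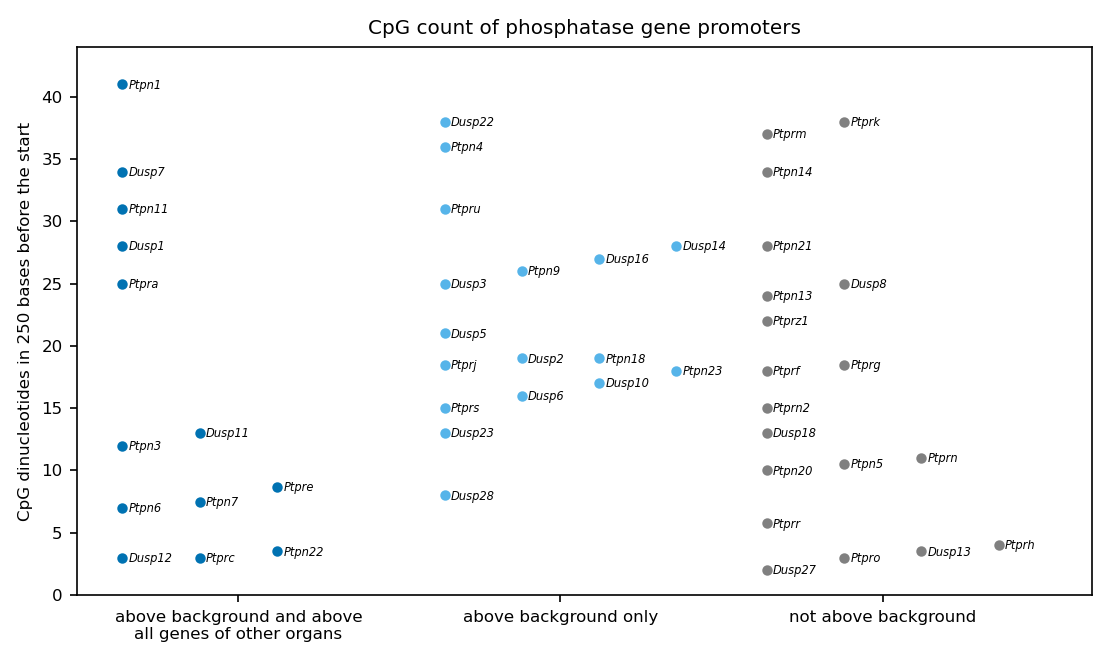
CpG dinucleotides in the 250 bases before the start (mean over a gene's starts) for the 49 phosphatase genes with a promoter, in 3 columns by detection; points are offset sideways for legibility. In the first column 8 genes lie between 3 and 13 and 5 between 25 and 41.

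A full cAMP response element, TGACGTCA (the same on both strands), was present in 4 of the 66 member promoters (6.06%) and in 1.55% of 32851 promoters of the same length. The shares of this motif and of those below were not tested. This element contains a CG, its 4 member promoters held 25 to 31 CpG, and the promoters compared were not matched for CpG content. The 4 sites are printed with the element in capitals. They lay 143 bases before the start in Dusp1 (chr17:26508597-26508626), 107 in Dusp8 (chr7:142095373-142095402), 67 in Ptpn11 (chr5:121191446-121191475) and 41 in Ptpru (chr4:131838301-131838330), all on the minus strand.
Dusp1: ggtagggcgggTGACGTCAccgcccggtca
Dusp8: gcccgctccgcTGACGTCAcctgcccccga
Ptpn11: gcggcgcgcgaTGACGTCAcgcaggcgccg
Ptpru: gcccgggggccTGACGTCAgcgccccgctc
Of these genes Dusp1 and Ptpn11 were clearly detected, Ptpru was at the edge of detection and Dusp8 was not called. TGACTCA and TATAAA were searched on both strands too, and none of these motifs contains another. TGACTCA (AP-1) was in 3 member promoters (4.55%, against 4.46% of all) and TATAAA in 2, those of Ptprc and Ptpre (3.03%, against 12.4%).

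Among MAP kinase phosphatases, 7 of 10 were above background. The nuclear, inducible enzymes were called in 3 of 4 cases. Dusp1, an immediate-early gene whose product acts on p38, JNK and ERK, was at 8.66, 8.79, 8.36 and 8.68 on arrays 1 to 4 (8.62 ± 0.18), so it was clearly present on each array. Dusp5, a nuclear ERK phosphatase, was at 7.13 ± 0.15. Dusp2, known from activated lymphocytes, was at 6.68, 6.57, 7.18 and 6.26 (6.67 ± 0.38), so array 4 alone lay under the lowest called mean. It was not called on arrays 2 and 4 alone. Dusp4 was at 5.95, 6.08, 5.72 and 7.13 (6.22 ± 0.62) and not called, with array 4 more than 1 log2 unit above the others. It was called without array 1, at 6.31, without array 2, at 6.27, and on arrays 2 and 4 alone.

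Cytoplasmic ERK phosphatases were called in 2 of 3 cases. Dusp7 was at 9.10, 8.40, 8.95 and 8.87 (8.83 ± 0.30), so it was clearly detected. Dusp6, which ERK signalling itself induces, was at 6.78 ± 0.32, within the range of the organ genes. Dusp9 was at 5.97, 5.82, 5.98 and 5.97 (5.93 ± 0.08) and not called, although limma's test called it.

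Of the enzymes that prefer JNK and p38, 2 of 3 were called. Dusp16 was at 7.70, 7.70, 7.12 and 7.69 (7.55 ± 0.29), so array 3 stood below 3 arrays that agreed closely. Dusp10 was at 7.05, 7.44, 6.41 and 6.95 (6.96 ± 0.43), again lowest on array 3. Dusp8 was at 6.30, 6.35, 6.32 and 6.24 (6.30 ± 0.05), close under the threshold on every array, while its second probe set averaged 4.94. It was called without array 2, at 6.29, and by limma's test.

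The atypical dual-specificity phosphatases, which lack the MAP kinase binding domain, were above background in 8 of 14 cases. Dusp11, an RNA triphosphatase, was at 9.72, 9.45, 9.59 and 9.22 (9.49 ± 0.21), and Dusp12, a zinc-binding phosphatase linked in yeast to ribosome assembly, at 8.31, 8.06, 8.27 and 8.03 (8.17 ± 0.14). Both were clearly detected, but the second probe set of Dusp12 was at 5.68 and was not called. Dusp22, which dephosphorylates the kinase Lck in T cells, was at 7.23, 7.98, 7.87 and 6.89 (7.49 ± 0.52), with arrays 2 and 3 above the other two. Dusp3 was at 7.06 ± 0.30, Dusp14, a regulator of T cell receptor signalling, at 6.97 ± 0.08, Dusp19 at 6.90 ± 0.21, Dusp28 at 6.78 ± 0.13 and Dusp23 at 6.64 ± 0.03. These 5 overlapped the organ genes. The 6 not called were Dusp13, Dusp15, Dusp18, Dusp21, Dusp26 and Dusp27, between 4.15 and 6.07. Dusp13, at 5.92, 5.96, 5.89 and 5.92, and Dusp26, at 6.17, 6.08, 6.12 and 5.92, were called by limma's test.

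Both SH2 domain phosphatases were above background. Ptpn6, which encodes SHP-1, the phosphatase that inhibitory receptors recruit, was at 8.96, 8.71, 8.96 and 8.51 (8.78 ± 0.22). Ptpn11, which encodes SHP-2, an activator of the ERK pathway below growth factor receptors, was at 8.18, 8.12, 8.13 and 8.22 (8.16 ± 0.05). Ptpn1 and Ptpn2, whose products act on JAK kinases, were both called. Ptpn1 was at 8.39, 7.76, 8.07 and 7.87 (8.02 ± 0.27) and Ptpn2 at 8.69, 8.69, 8.67 and 8.66 (8.68 ± 0.02), with the same value on arrays 1 and 2 to all printed digits. A second probe set of Ptpn2 averaged 7.30 and lay above the lowest called mean too.

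All 3 PEST phosphatases were called. Ptpn22, which works with the kinase Csk to restrain Src family kinases in lymphocytes, was at 10.61, 10.10, 10.42 and 9.93 (10.26 ± 0.31). Ptpn12, a regulator of the cytoskeleton, was at 7.63, 7.57, 8.35 and 8.18 (7.93 ± 0.39), higher on arrays 3 and 4 than on the other two. Ptpn18 was at 6.84 ± 0.12 and overlapped the organ genes.

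Phosphatases with a FERM domain, which binds membrane proteins, were called in 2 of 5 cases. Ptpn3 was at 8.73, 7.64, 7.52 and 7.58 (7.87 ± 0.58) by its highest probe set, where array 1 stood apart. It is the member with the most probe sets, 12, whose means ran from 4.20 to 7.87 with a median of 6.83, and 9 of them lay above the lowest called mean. Of these 9, 3 were highest on array 1 and 3 were lowest on it, such as one at 6.24, 8.13, 7.03 and 6.57. The high array 1 was thus shared by only some of the gene's probe sets. Probe sets of this gene thus disagreed by more than 3 log2 units, and it was not called by its lowest one. Ptpn3 was clearly detected by its highest probe set alone. The next highest was at 6.92 on array 3, within the range of the organ genes. Ptpn4 was at 7.04 ± 0.29. Ptpn14 was at 6.31, 6.33, 6.48 and 6.24 (6.34 ± 0.10) and not called, although it was without array 1, at 6.35, without array 2, at 6.34, and by limma's test. Ptpn13 at 5.29 ± 0.21 and Ptpn21 at 5.56 ± 0.05 were not called.

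Of the 3 phosphatases that carry a kinase interaction motif for ERK and p38, Ptpn7 was called. It is the member known from haematopoietic cells and was at 9.39, 9.38, 9.29 and 9.68 (9.43 ± 0.17), clear of the organ genes on each array. Ptpn5, known from neurons, was at 5.92, 5.98, 5.87 and 5.98 (5.94 ± 0.05) and called by limma's test but not by detection, while Ptprr was at 4.67 ± 0.04. Among other cytosolic enzymes, Ptpn9, which acts on secretory vesicles, was called at 6.91 ± 0.30 and Ptpn23, an endosomal protein, at 6.88 ± 0.23, while Ptpn20 at 4.30 ± 0.06 was not.

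Receptor phosphatases were called less widely, in 7 of 20 cases, and the difference from the cytosolic enzymes was not tested. Ptprc encodes CD45, which activates Src family kinases and is carried by all nucleated blood cells. It was at 11.20, 11.00, 11.30 and 11.21 (11.18 ± 0.13). Both receptors with a short ectodomain were clearly detected. Ptpra, another activator of Src kinases, was at 9.15, 9.10, 9.18 and 9.13 (9.14 ± 0.03), and Ptpre at 7.63, 7.48, 7.67 and 7.97 (7.69 ± 0.20). The levels of Ptprc and Ptpra thus differed little between samples.

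The other receptor calls lay near background. Ptprj, which encodes CD148, was at 7.00, 6.89, 7.51 and 6.71 (7.03 ± 0.34), highest on array 3, and its second probe set averaged 6.83. Ptprv was at 6.79 ± 0.07 and Ptprs, a receptor for proteoglycans, at 6.46, 7.08, 6.38 and 6.64 (6.64 ± 0.31), highest on array 2. Ptpru was at 6.35, 6.44, 6.36 and 6.36 (6.38 ± 0.04), the lowest of the called members. It was not called without array 3, at 6.38, without array 4, also at 6.38, on arrays 2 and 4 alone, or with olfactory receptors alone as background.

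The 13 receptor genes not called are known mostly from other tissues. Ptprb, known from endothelium, was at 4.70 ± 0.02, Ptpro, known from podocytes, at 4.82 ± 0.08, Ptprq, known from the inner ear, at 4.97 ± 0.10 and Ptprz1, known from glia, at 3.96 ± 0.07. Ptprd, Ptprf, Ptprg, Ptprh, Ptprk and Ptprm lay between 4.55 and 6.16. Of these limma's test called Ptprf, at 5.97, 5.92, 6.06 and 6.06, and Ptprm, at 6.24, 6.22, 6.05 and 6.11. The islet antigens Ptprn and Ptprn2, which have lost catalytic activity, were not called. Ptprn was at 6.06, 5.93, 5.86 and 5.98 (5.96 ± 0.08) and Ptprn2 at 5.87, 6.08, 5.96 and 5.99 (5.97 ± 0.09). Of the 2 islet antigen genes 0 were called by the detection test, though 2 had an unadjusted p under 0.05 and limma's test called 2. Of the 2 receptors with a carbonic anhydrase domain (Ptprg, Ptprz1) 0 were called, also by limma's test, and 0 had an unadjusted p under 0.05.

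**Figure D3:**
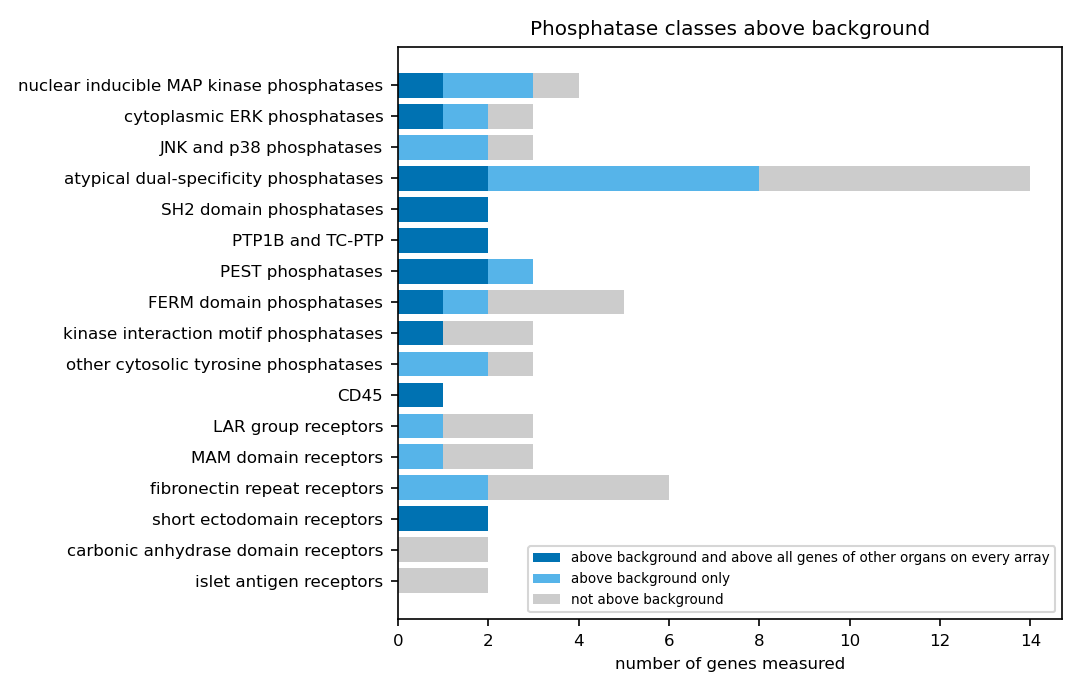
Number of phosphatase genes measured in each of 17 classes, as horizontal bars split into genes clearly detected (dark), above background only (light) and not above background (grey). The SH2, PTP1B, CD45 and short ectodomain classes are dark throughout.

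The 34 called members varied between arrays slightly more than called genes in general. Their median SD was 0.218, beside 0.168 for all 9203 genes above background, and 21 of the 34 lay above that value. Ptpn3 and Dusp22 exceeded the 95th percentile of 0.476. At the other end Dusp23 had an SD of 0.026 and Ptpra of 0.031. The SD of Ptpn2 was 0.016 by its highest probe set, which held an identical value on 2 arrays, but 0.375 by its second one, at 6.81, 7.26, 7.43 and 7.70. No test was made of this difference.

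**Figure D4:**
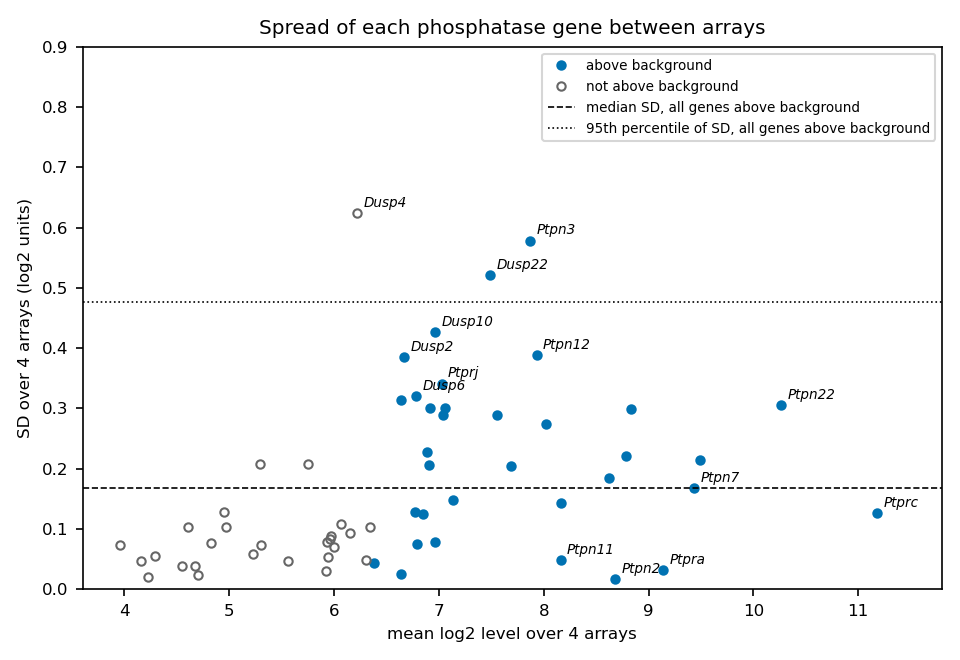
SD over the 4 arrays against the mean log2 level for the 61 phosphatase genes, filled where above background and open where not, with the median (0.168, dashed) and 95th percentile (0.476, dotted) of the SD of all genes above background. Dusp4, Ptpn3 and Dusp22 lie above the dotted line.

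Markers of other cells were called on the same arrays, and those of B cells moved between them. The counts here stand beside 46.2% of all named genes and 7 of 17 organ genes called. A count near those shares does not tell whether such cells were there. B cell markers were called in 10 of 11 cases, and their mean level was 8.59, 7.70, 8.87 and 7.52 on arrays 1 to 4. T cell markers were called in 10 of 12 cases, with a mean between 7.35 and 7.64. Their mean was also higher on arrays 1 and 3 than on both others, by any amount, as was that of monocyte and macrophage markers. The means of NK and ILC1, ILC2, dendritic cell, neutrophil, and stroma and endothelium markers did not have this order. Nor did those of ILC3 and sort gate genes and of organ genes. The order was not limited to markers of other cells, since housekeeping genes had it by a small amount, at 11.093, 11.086, 11.172 and 11.074. Among the lists described below, MAP kinases, the Src group, SHP-1 and SHP-2 recruiters and partners of CD45 and PEST phosphatases had it too. Of the 34 called phosphatases, 13 (38.2%) were higher on arrays 1 and 3 than on both others, by any amount, as were 16.4% of all 9203 called genes. The 13 were Dusp2, Dusp3, Dusp6, Dusp7, Dusp11, Dusp12, Dusp23, Ptpn1, Ptpn6, Ptpn18, Ptpn22, Ptpra and Ptprj. Only the order was counted, so genes that hardly moved are among them. Ptpra was at 9.15, 9.10, 9.18 and 9.13 and Dusp23 at 6.65, 6.64, 6.66 and 6.60. The opposite order was found for 5 of the 34 (14.7%) and for 15.5% of all called genes. This tally was chosen after the data were seen and has no test. The part of B cells, or of other cells, in it was not tested. On arrays 2 and 4 alone, with the lower B cell markers (a choice made after the data were seen), 33 of the 61 phosphatases were called, beside 44.3% of all named genes, and so were 8 B cell markers. Fewer cells of a type and less RNA per cell cannot be told apart in these bulk samples. Markers of NK cells and ILC1 were called in 7 of 12 cases, of ILC2 in 4 of 8, of dendritic cells in 5 of 10, of monocytes and macrophages in 2 of 10, and of stroma and endothelium in 5 of 12. Of 10 neutrophil markers 0 were called, also by limma's test, and 1 had an unadjusted p under 0.05. All 10 ILC3 and sort gate genes measured were clearly detected, among them Il7r (CD127) at 12.56 ± 0.06, Ccr6 at 10.49 ± 0.09 and Thy1 (CD90) at 11.36 ± 0.15.

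**Figure D5:**
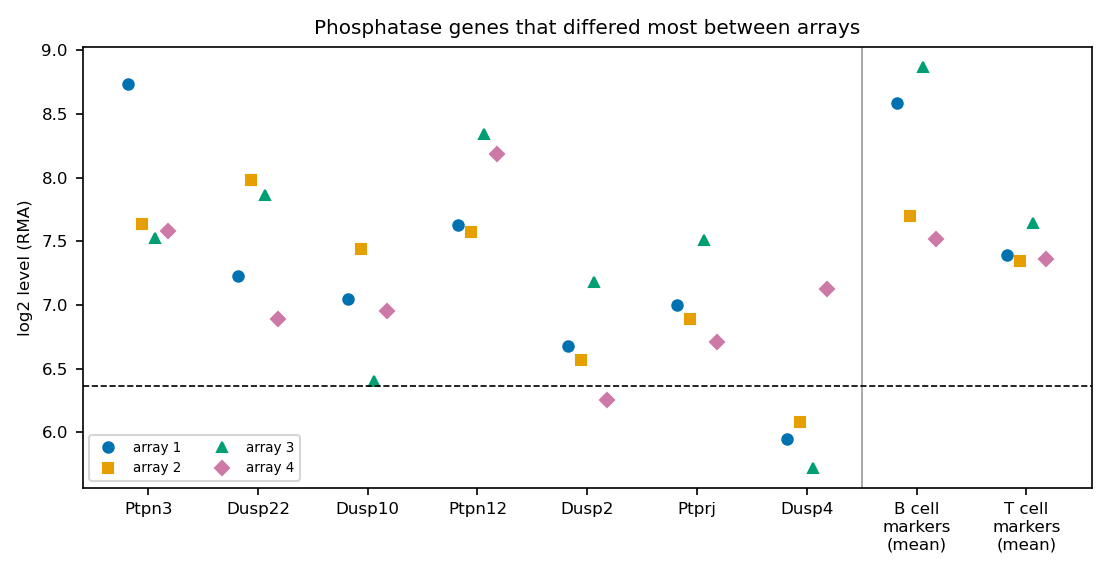
Log2 level on arrays 1 to 4 of the 6 called phosphatase genes with the largest SD and of Dusp4, with the mean level of B cell and T cell markers on the right of the grey line; the dashed line is the lowest mean of a called gene (6.37). B cell markers lie at 8.59 and 8.87 on arrays 1 and 3 and at 7.70 and 7.52 on arrays 2 and 4.

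The kinases that these phosphatases oppose were also examined. MAP kinases and their kinases were called in 15 of 18 cases, with Braf at 8.93 ± 0.17, Map3k7 at 8.68 ± 0.14, Mapk14, which encodes p38α, at 8.63 ± 0.27 and Mapk8, which encodes JNK1, at 8.31 ± 0.08. Mapk13 at 6.33 ± 0.06 and Mapk11 at 6.20 ± 0.18 were not called. All 9 JAK and STAT genes measured were called, among them Jak1 at 11.15 ± 0.05, Stat4 at 10.03 ± 0.09, Jak2 at 9.78 ± 0.28 and Stat3 at 9.31 ± 0.07. Kinases of the Src, Csk and ZAP70 group, with the adaptor Pag1, were called in 7 of 9 cases. Zap70 was at 8.94 ± 0.13, Csk at 8.30 ± 0.17, Fyn at 8.24 ± 0.16 and Blk at 7.81 ± 0.33, while Fgr at 5.39 ± 0.03 and Yes1 at 4.06 ± 0.03 were not called. The count of this group was 4 on arrays 2 and 4 alone.

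Receptors and adaptors that recruit SHP-1 or SHP-2 were called in 9 of 15 cases. Cd72 was at 9.71, 8.44, 9.59 and 8.88 (9.16 ± 0.60) and Cd22 at 8.79, 7.52, 8.96 and 7.50 (8.19 ± 0.79), both known from B cells and higher on arrays 1 and 3. Pecam1 was at 8.44 ± 0.18 and the adaptor Gab3 at 8.39 ± 0.17, while Pirb at 6.20 ± 0.26 and Sirpa at 5.85 ± 0.12 were not called. Partners of CD45 and of PEST phosphatases were called in 6 of 7 cases, with Cd4 at 10.96 ± 0.13, Ptprcap, the CD45-associated protein, at 10.24 ± 0.17, Pstpip1, a substrate adaptor of PTP-PEST, at 8.90 ± 0.17 and Cd2 at 8.57 ± 0.53. Pstpip2 at 4.77 ± 0.02 was not called. Csk and Cd22 stand in 2 of these lists. Pecam1 was also counted among the stroma and endothelium markers, and some other receptors among those of T cells and ILC2.

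Other protein phosphatases of the cysteine classes were called in 12 of 18 cases. Ptp4a2, a prenylated phosphatase, was at 10.29 ± 0.04, Ssh2, a slingshot phosphatase that acts on cofilin, at 9.64 ± 0.16, Cdc14a at 9.35 ± 0.18 and Ptp4a3 at 8.86 ± 0.25. Cdc14b at 6.28 ± 0.36 and Cdc25a at 6.25 ± 0.25 were not called.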

How the data were processed

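Per the submitters' processing notes, the authors used RMA, and the deposited table holds its log2 values for 35556 probe sets; version, software and genome build are unstated. GEO's platform annotation gave a single symbol for 21789 probe sets, several for 1621 and none for 12146. These stand for 19938 genes, each read from its highest probe set by mean. All 4 samples form 1 group, so detection was the only question tested. Alternatives were limma 3.58.1 (R 4.3.3, one-sided, against each array's 95th percentile of background, Benjamini-Hochberg adjusted), that percentile as a rule, other background genes, probe set rules, median centring, and leaving out arrays. The tests were tested on simulated data. Of called genes, 10.9% had an identical value on at least 2 arrays, and their SD can be too small. Arrays give no depth, and their number limits the precision.

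The members, classes and lists were chosen with earlier results of these data known. Every member could be named, with values on each array for those clearly detected, for the 6 called ones with the largest SD and for those whose call changed. Each list gave up to 4 called and 2 uncalled genes with the highest means, and cell marker lists are given mainly by count. Promoters came from RefSeq (GRCm38.p6), and no probe set coordinates are given. A further motif was searched and is not reported here. Python 3.11.15 with pandas 2.3.3 was used.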

Additional observations from a re-analysis of the deposited data

Results flagged for a closer look

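In 6 of the 61 phosphatase genes the highest or lowest array lay apart from the other 3 by more than Dixon's 95% critical value allows. This was 9.84% of them, beside 12.9% of all named genes, and chance gives about 1 in 20. Dusp16 was low on array 3, at 7.12, against 7.69 to 7.70 on the others. The highest probe set of Ptpn3 was high on array 1, at 8.73, against 7.52 to 7.64. Of the gene's 9 probe sets above the lowest called mean, 3 were highest on array 1, this one among them, and 3 were lowest on it. Ptpru was high on array 2, at 6.44, against 6.35 to 6.36. The remaining 3 were not above background, namely Dusp9 at 5.82 on array 2, Dusp15 at 4.26 on array 3 and Ptprh at 5.31 on array 4. The 3 other arrays held an identical value for Dusp15 and for Ptprh, so any gap there passes the limit.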

How the results depend on the processing

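The count of 34 called phosphatases was 32 to 44 under every alternative, and 30 of the 34 were called under all 11. Limma's test called 44 (54.1% of all named genes) and the 95th percentile of background 43 (54.4%), and neither lost a member. Those 2 alternatives called 2 kinase interaction motif genes, 2 LAR group, 2 MAM domain and 2 islet antigen receptors, against 1, 1, 1 and 0 in the report. Leaving out 1 array in turn gave 33 to 37 members. The MAM domain count was 0 with olfactory receptors alone, 0 on arrays 2 and 4 alone and 0 to 1 without 1 array, Ptpru being its only call. By the lowest probe set Ptpn3 and Dusp12 were not called, and the FERM domain count was 1. Src group kinases numbered 4 on arrays 2 and 4 alone, and monocyte and macrophage markers 2 to 4 without 1 array. The median SD of called members was 0.184 to 0.218 without 1 array. A threshold of 0.01 was not run, as the smallest adjusted p is 0.0108. Scaling by array medians changed no call of a member. No paired analysis was possible because there is 1 group. Levels near background limit the calls, and 7 of 17 genes of other organs were called.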
